A study of Mus musculus with 6 samples.

Results

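Ciliated cells and the axoneme of their motile cilia were examined through 37 genes in lung cells from Bmi1 wild-type mice and from mice labelled Bmi1 mutant. The genes were chosen by name, with earlier results of these data known. Of them, 35 had at least 1 probe set annotated with that symbol alone, among 18193 genes so measured. Sntn and Lrriq1 had none. Where a gene had several probe sets, the one with the highest mean over all 6 arrays stood for it.

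The cells came from 4-month-old female mice of mixed Bl6/129 background, with 3 Affymetrix arrays for the genotype given as Bmi1 wild-type and 3 for the genotype given as Bmi1 null. Bmi1 belongs to Polycomb repressive complex 1, a silencer of developmental genes. For both genotypes lung tissue was dissociated with dispase and collagenase and red cells were removed, and live cells negative for CD31 (endothelial) and CD45 (blood) were sorted and not cultured. The labels call the arrays of each genotype biological replicates 1 to 3. They do not say which part of Bmi1 is missing, or whether an array holds 1 mouse or a pool. The p-values therefore measure only the spread between these samples, and whether that is a spread between single mice is not known.

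Motile cilia beat to clear mucus from the airways. Their axoneme is a ring of microtubule doublets around a central pair: dynein arms make the doublets slide, nexin links and radial spokes turn sliding into bending, and the central pair helps to set the beat. Ciliated cells turn these genes on through the forkhead factor Foxj1 and the RFX factors, which bind the X-box found in promoters of many ciliary genes.

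Promoter windows of these genes often held the core of the X-box. A window spanned 250 bases before to 50 bases after a transcript start in RefSeq (GRCm38.p6), and 32 of the 37 genes were matched. Foxj1, Rsph1, Rsph4a, Armc4 and Tppp3 were not. The RFX core motif GTTGCC, searched on both strands, was in 20 of 32 genes (62.5%), against 14.1% of all 27025 genes in the table and 14.7% of the 14452 of them measured on the arrays. It was in 6 of 14 regulators of multiciliated cells, 15 of 37 genes of intraflagellar transport and the BBSome, and 19 of 52 other motile axoneme genes. It was in 0 of 12 club cell markers, 0 of 14 general epithelial markers and 1 of 15 hematopoietic markers, but in 2 of 9 alveolar type 1, 1 of 10 alveolar type 2, 1 of 7 neuroendocrine and 1 of 3 mesothelial markers. Median GC content was 53% in the ciliated windows, 52.7% in all windows and 58.3% in windows of genes measured on the arrays. A single form of the X-box was searched: GTTNCC, any 2 bases and GGNAAC, a pattern that can contain the core motif. Of the 32 genes this form was in Pifo (3.12%), against 0.529% of all genes. Forms with another gap or other bases were not searched, so other genes may hold an X-box too. The forkhead motif GTAAACA was in Ak7, Mlf1 and Sntn (9.38%), against 4.05% of all genes.

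The following core motifs, in capitals, are given with up to 12 bases on either side, on the strand that reads GTTGCC. They come from 5 genes whose mutant-labelled arrays all lay above the wild-type arrays (Dnaic2, Ccdc113, Ccdc153, Dynlrb2 and Zmynd10) and from the RFX genes. Pifo is added because its motif lies inside the X-box form searched. Coordinates are GRCm38.p6.
Dnaic2 (chr11:114727381-114727410, minus strand): cggagtttaccaGTTGCCtagcaaccctgg
Ccdc113 (chr8:95534082-95534111, minus strand): accctgaggcgcGTTGCCtagacaactgaa
Ccdc153 (chr9:44240513-44240542, plus strand): ctgagttttccaGTTGCCtggacaacgtgc
Dynlrb2 (chr8:116504952-116504981, plus strand): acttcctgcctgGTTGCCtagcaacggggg
Zmynd10 (chr9:107547331-107547353, minus strand): gggcaGTTGCCaagccgttgaag
Rfx2 (chr17:56831107-56831136, minus strand): agcttggtaaccGTTGCCgggcgcaacgcc
Rfx3 (chr19:28011118-28011147, minus strand): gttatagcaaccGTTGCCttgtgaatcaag
Pifo (chr3:106001492-106001521, plus strand): tctgtgtactacGTTGCCaagggaacggaa

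In Dnaic2 and Dynlrb2 the bases after the capitals read tagcaac, so that gcaac mirrors the first bases of the motif on the other strand. In Ccdc113 they read tagacaac and in Ccdc153 tggacaac. The 32 genes held 24 distinct core motifs, of which 13 (54.2%) began in the 100 bases before the start, against 37.2% of 4078 in all windows. A match describes letters and does not show binding.

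**Figure D1:**
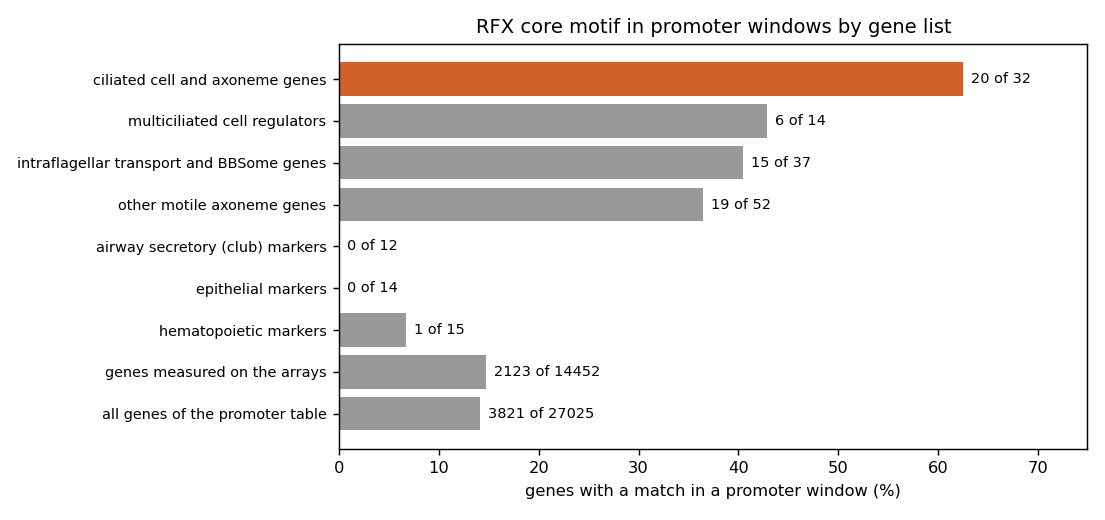
Share of genes (%, horizontal axis) with the RFX core motif GTTGCC in a promoter window, on either strand, with 1 bar per gene list. The ciliated cell genes stand at 62.5% and all genes of the table at 14.1%.

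Every array had a trimmed mean of 500.002, so a shift of all genes together cannot be seen. Array medians were 97.4 to 114, and log2 signals correlated at 0.970 to 0.979 within a genotype and 0.957 to 0.973 between genotypes. Bmi1 itself was not lower in the mutant-labelled arrays. Its brighter probe set had a mean of 1446 ± 151 there and 1047 ± 102 in wild type, and its other probe set 665 ± 147 and 588 ± 83.4 (SD, n = 3 each). A probe set outside the deleted part checks nothing, so every direction given here rests on the labels.

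Ciliated cell genes were measured in both genotypes, and limma called none of them different. Of 35 genes, 34 had a mean signal of at least 100, and Hydin had 76.8. At a limma adjusted p under 0.05, 0 were higher and 0 lower in the mutant-labelled arrays, against 0.412% and 0.511% of all genes, or 0.923% in either direction. The lowest adjusted p was 0.122, for Rsph9. At an unadjusted p under 0.05, 5 were higher (Rsph9, Foxj1, Dnaic2, Ak7 and Ccdc113) and 0 lower, against 7.51% and 7.04% of all genes.

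The log2 difference, mutant-labelled minus wild type on the log2(signal + 16) scale, ran from -0.35 to 0.71. Its median was 0.08, against 0.01 over all genes, and 25 of 35 genes lay above 0, against 50.7% of all genes. Single arrays moved that median: it was 0.21 with mutant-labelled replicate 2 left out, 0.17 with wild-type replicate 2 left out, 0.04 with wild-type replicate 3 left out and 0.01 with mutant-labelled replicate 3 left out. In 10 genes (28.6%) all mutant-labelled arrays lay above all wild-type arrays, against 10.4% of all genes, and in 0 they all lay below, against 10.0%. Genes share their arrays and are not replicates. They were also chosen with earlier results of these data known, so these shares describe them and test nothing. In bulk RNA, fewer cells of a type and less RNA per cell cannot be told apart.

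**Figure D2:**
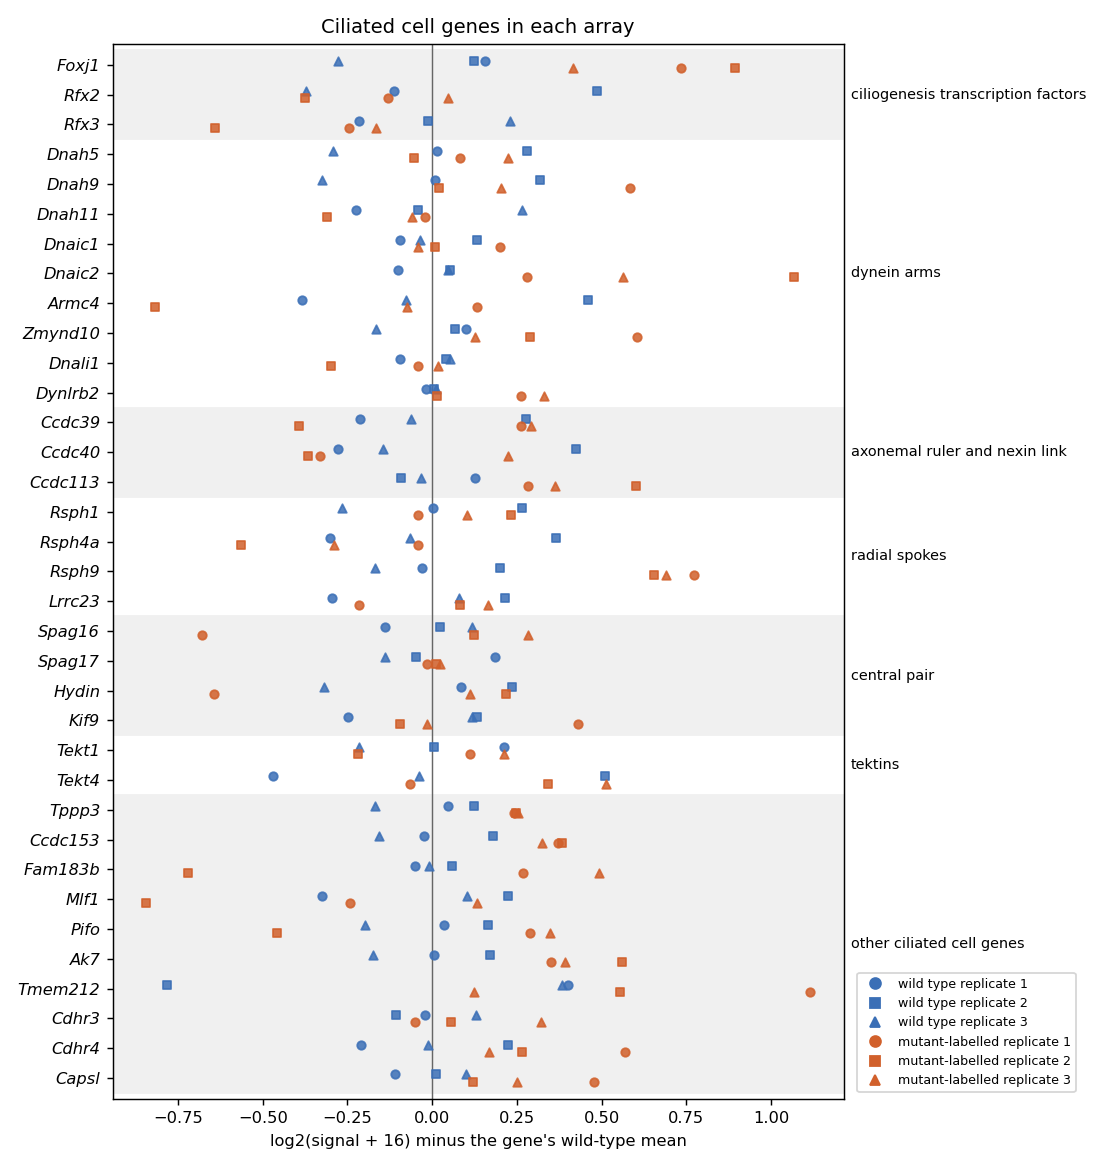
Log2(signal + 16) of the 35 ciliated cell genes minus each gene's mean over the 3 wild-type arrays (horizontal axis), 1 point per array, grouped by role. For Rsph9 the mutant-labelled points all lie right of the wild-type points, and for Fam183b, Mlf1 and Armc4 mutant-labelled replicate 2 is the lowest array.

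Among the transcription factors, Foxj1 separated the groups and the RFX genes overlapped. Foxj1, the forkhead factor needed for motile cilia, had wild-type signals of 1537, 1503 and 1136 and mutant-labelled signals of 2307, 2579 and 1846, in the order of the replicate numbers, as for all genes named after it. The lowest mutant-labelled array was above the highest wild-type array. The log2 difference was 0.68 ± 0.21 (SE, n = 3 each; 95% interval 0.19 to 1.17), with a limma adjusted p of 0.204.

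Rfx2, an RFX factor of ciliogenesis, had 178, 278 and 146 in wild type against 176, 146 and 201, with overlapping groups and a log2 difference of -0.15 (95% interval -0.76 to 0.46). The other Rfx2 probe sets were dimmer and also overlapped, with log2 differences of -0.37, -0.28 and -0.99. Rfx3, which acts in motile and sensory cilia, had 699, 808 and 960 against 685, 517 and 725. Its groups overlapped through 1 wild-type and 1 mutant-labelled array, with a log2 difference of -0.35 (95% interval -0.84 to 0.14, limma adjusted p = 0.503). The other probe set of Rfx3 had a log2 difference of -0.20.

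Dynein arms carry the motors. Of the 9 genes grouped with them, 3 (33.3%) had all mutant-labelled arrays above wild type, against 10.4% of all genes. Dnaic2, an outer arm intermediate chain, had 121, 136 and 135 in wild type against 162, 291 and 201. Mutant-labelled replicate 2 was the highest array, and the log2 difference was 0.64 ± 0.23 (SE, n = 3 each; 95% interval 0.09 to 1.18; limma adjusted p = 0.274). The suffix x_at marks probe sets that may bind other transcripts, and this is one, while the other Dnaic2 probe set stayed between 1.45 and 29.9 on all arrays. Zmynd10, needed to assemble dynein arms, had 429, 419 and 354 against 616, 491 and 438, with a narrow gap between the groups and a log2 difference of 0.34 (95% interval -0.11 to 0.79). Dynlrb2, a dynein light chain, had 2705, 2751 and 2759 against 3286, 2763 and 3445. Its mutant-labelled replicate 2 stood level with wild type, and the log2 difference was 0.20 (95% interval -0.18 to 0.58).

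The other 6 dynein arm genes overlapped with the probe set used. The heavy chains, which are the motor subunits, had log2 differences of 0.08 for Dnah5 (95% interval -0.39 to 0.56), 0.27 for Dnah9 (-0.29 to 0.83) and -0.13 for Dnah11 (-0.59 to 0.32). Dnaic1, the other outer arm intermediate chain, had a log2 difference of 0.05 (95% interval -0.33 to 0.44). Its other probe set, also marked x_at, had 95.2, 90.8 and 89.1 against 116, 104 and 101. Those groups did not overlap, with a log2 difference of 0.19. The inner arm gene Dnali1 had -0.11 with the probe set used and 0.05 with its other one. Armc4, a docking protein gene, had 103, 198 and 131 against 154, 72.0 and 132, lowest in mutant-labelled replicate 2, and a log2 difference of -0.25 (95% interval -1.02 to 0.51).

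In the axonemal ruler and nexin link, Ccdc113, an axonemal coiled-coil protein, had 1084, 931 and 970 in wild type against 1212, 1516 and 1282. The groups did not overlap, and the log2 difference was 0.42 ± 0.17 (SE, n = 3 each; 95% interval 0.02 to 0.81; limma adjusted p = 0.325). Ccdc39 and Ccdc40, which set the spacing of arms and spokes, overlapped, with log2 differences of 0.05 (95% interval -0.53 to 0.64) and -0.16 (-0.78 to 0.46).

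Of the 4 radial spoke genes, Rsph9 separated the groups and the other 3 overlapped. Rsph9, a spoke head protein, had 642, 755 and 581 in wild type against 1131, 1040 and 1066, so means of 659 ± 88.5 and 1079 ± 46.6 (SD, n = 3 each). The mutant-labelled arrays lay close together and above every wild-type array. The log2 difference was 0.71 ± 0.17 (SE; 95% interval 0.31 to 1.101), with a limma adjusted p of 0.122. The spoke head gene Rsph1 had 2871, 3449 and 2381 against 2787, 3373 and 3078, a log2 difference of 0.10 (95% interval -0.36 to 0.56). Rsph4a, also of the spoke head, had 756, 1210 and 893 against 907, 627 and 762, a log2 difference of -0.30 (-0.86 to 0.26). Whether Rsph9 differed from its partners was not tested. Lrrc23, another spoke protein, had a log2 difference of 0.01 (95% interval -0.47 to 0.49).

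Whole windows are given for 3 of the genes with an unadjusted p under 0.05, because their motif content differs. The Rsph9 window held no match to the 3 patterns searched, the Ak7 window held the forkhead motif and the Dnaic2 window held the RFX core motif. Near matches were not searched. Each reads in the direction of the gene, with the match in capitals, and both matches are on the opposite strand and so appear as the reverse complement.
Rsph9 (chr17:46144151-46144450, minus strand): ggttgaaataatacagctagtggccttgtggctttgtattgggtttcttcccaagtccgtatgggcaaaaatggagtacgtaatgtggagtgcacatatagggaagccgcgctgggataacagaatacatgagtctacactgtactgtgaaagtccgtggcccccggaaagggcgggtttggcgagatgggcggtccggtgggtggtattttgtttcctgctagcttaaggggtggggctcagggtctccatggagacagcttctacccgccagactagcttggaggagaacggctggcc
Ak7 (chr12:105705732-105706031, plus strand): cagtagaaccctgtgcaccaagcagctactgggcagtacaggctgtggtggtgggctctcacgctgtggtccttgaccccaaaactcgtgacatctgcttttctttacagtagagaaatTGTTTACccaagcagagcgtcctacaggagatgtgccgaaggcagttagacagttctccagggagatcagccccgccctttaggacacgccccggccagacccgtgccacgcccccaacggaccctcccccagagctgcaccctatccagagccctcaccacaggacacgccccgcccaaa
Dnaic2 (chr11:114727169-114727468, plus strand): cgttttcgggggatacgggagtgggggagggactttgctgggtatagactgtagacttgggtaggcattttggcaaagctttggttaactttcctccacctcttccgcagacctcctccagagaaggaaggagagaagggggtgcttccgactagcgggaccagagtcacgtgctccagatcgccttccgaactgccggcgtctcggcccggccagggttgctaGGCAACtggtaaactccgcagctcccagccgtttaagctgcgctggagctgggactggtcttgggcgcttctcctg

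The 18 measured genes with a core motif had a median log2 difference of 0.08 and the 12 without one 0.07. Only exact matches to GTTGCC counted, so genes without one may hold a near match. All mutant-labelled arrays lay above wild type in 5 of the 18 and 3 of the 12, against 10.4% of all genes.

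No gene of the central pair or the tektins had groups that did not overlap, against 10.4% of all genes above and 10.0% below. Kif9, a kinesin, had 206, 273 and 270 in wild type against 340, 231 and 245, a log2 difference of 0.11 (95% interval -0.39 to 0.61). Spag17, a central pair scaffold, had means of 247 ± 31.2 and 247 ± 3.38 (SD, n = 3 each). Hydin, also of the central pair, had a log2 difference of -0.11 (95% interval -0.77 to 0.56). The tektins are filament proteins of the doublet wall. Tekt1 had a log2 difference of 0.04 (95% interval -0.43 to 0.50), and Tekt4 had 79.6, 172 and 113 against 110, 152 and 173, with the wild-type arrays spread more widely than the mutant-labelled ones.

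Spag16, a central pair protein, gave different values with different probe sets. The one used had 131, 148 and 159 against 84.9, 160 and 181, overlapping, with a log2 difference of -0.09. A dimmer one had 37.5, 59.9 and 47.0 against 96.6, 79.7 and 82.5, with no overlap, a log2 difference of 0.68 and a limma adjusted p of 0.206 over all probe sets. Another, very dim, had means of 1.78 and 17.9 without overlap, and a log2 difference of 0.92 (limma adjusted p = 0.102 over all probe sets). The last, also very dim, overlapped, with a log2 difference of 0.23. Tested one by one, an alternative chosen after seeing the data, 0 of the 51 probe sets of these genes passed, against 0.469% of all probe sets, and 8 were higher and 0 lower at an unadjusted p under 0.05, against 6.20% and 7.45% of all probe sets. In 7 of the 11 genes with several probe sets all had the same sign, but many of the extra probe sets were dim, and among the 4 genes with several of mean signal at least 100 it was 3.

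Of the 10 measured genes with other roles in ciliated cells, 4 (40%) had all mutant-labelled arrays above wild type, against 10.4% of all genes. Ak7, an adenylate kinase of motile cilia, had 1880, 2110 and 1656 in wild type against 2393, 2772 and 2461. The log2 difference was 0.43 ± 0.17 (SE, n = 3 each; 95% interval 0.03 to 0.84; limma adjusted p = 0.307). Ccdc153, the brightest of the probe sets used, had 4790, 5517 and 4367 against 6298, 6358 and 6103, with the mutant-labelled arrays in a narrow range and a log2 difference of 0.36 (95% interval -0.02 to 0.74). Tppp3, a tubulin-binding protein, had 2387, 2515 and 2051 against 2731, 2746 and 2756, a log2 difference of 0.25 (95% interval -0.13 to 0.62). Capsl, named for its likeness to calcyphosine, had 790, 861 and 918 against 1196, 930 and 1021, with mutant-labelled replicate 2 just above the highest wild-type array and a log2 difference of 0.28 (95% interval -0.12 to 0.69).

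The other 6 overlapped. Fam183b had 1390, 1500 and 1428 against 1735, 866 and 2029, so that wild type lay between the mutant-labelled values, and a log2 difference of 0.01 (95% interval -0.74 to 0.77). Pifo had 753, 825 and 639 against 902, 531 and 940, a log2 difference of 0.06. Mlf1 had 375, 556 and 510 against 398, 257 and 520, a log2 difference of -0.32 (95% interval -1.001 to 0.37). In all 3 mutant-labelled replicate 2 was the lowest array. Tmem212 had 597, 254 and 590 against 991, 666 and 490, with wild-type replicate 2 far below its group, a log2 difference of 0.60 and the widest interval of the 35 genes (-0.34 to 1.54). The cadherin-related genes Cdhr3 and Cdhr4 had log2 differences of 0.11 (95% interval -0.30 to 0.52) and 0.33 (-0.13 to 0.80). The other Cdhr4 probe set had 0.63, with overlapping groups and a limma adjusted p of 0.325 over all probe sets.

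For 29 of the 35 genes the 95% interval lay between log2 differences of -1 and 1. The upper bound passed 1 for Foxj1, Dnaic2, Rsph9 and Tmem212, and the lower bound passed -1 for Armc4 and Mlf1. The intervals reached 0.37 to 0.94 to either side, with a median of 0.48.

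**Figure D3:**
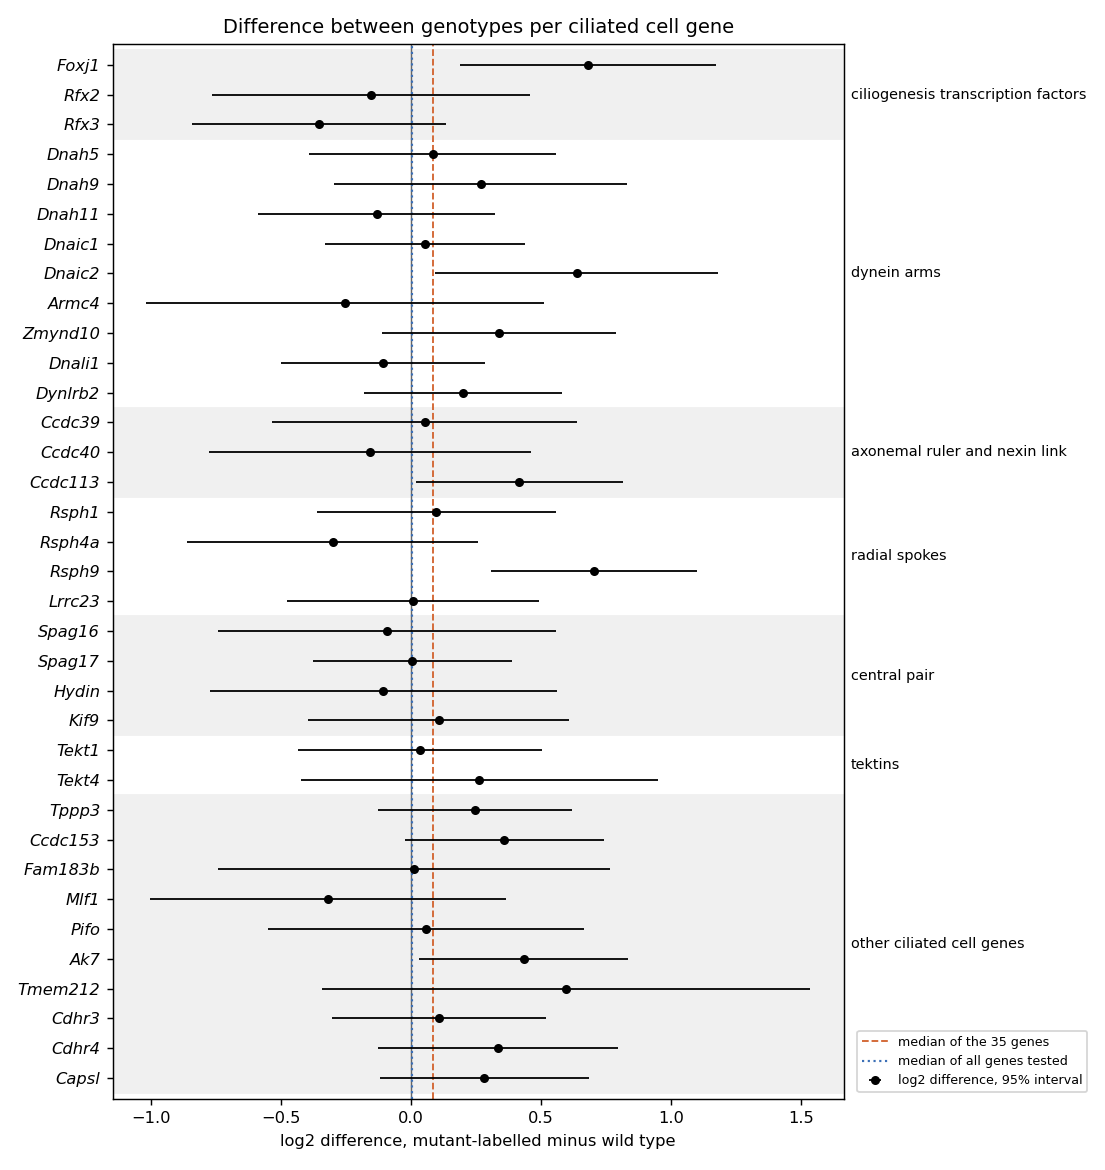
Log2 difference, mutant-labelled minus wild type (horizontal axis), of each of the 35 ciliated cell genes with its 95% interval from limma, by role. The intervals of Foxj1, Dnaic2, Ccdc113, Rsph9 and Ak7 exclude 0 before adjustment for the number of genes tested.

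Replicate arrays differed among themselves across many of these genes. Wild-type replicate 2 was the highest of its genotype in 22 of 35 genes (62.9%, against 32.3% of all genes), and replicate 1 the lowest in 18 (51.4%, against 33.1%). Mutant-labelled replicate 2 was the lowest of its genotype in 18 (51.4%, against 38.6%), and replicate 3 the highest in 17 (48.6%, against 35.02%). The ratio of 3' to 5' signal of Gapdh, a sign of RNA quality, was 5.15, 5.88 and 4.85 for wild-type replicates 1 to 3 and 5.24, 5.24 and 5.94 for the mutant-labelled ones, so it was highest in the same array of each genotype as these genes most often were. The same ratio of Actb was 0.974, 1.002 and 0.966, and 0.980, 0.949 and 0.950. The part of RNA quality in these values was not tested. Mutant-labelled replicate 2 was not low throughout: relative to the mean of the other mutant-labelled arrays, its log2 signal was -1.101 for Fam183b, -0.85 for Armc4, -0.79 for Mlf1 and -0.78 for Pifo, but 0.65 for Dnaic2, 0.32 for Foxj1 and 0.28 for Ccdc113. The mean log2 signal of the 35 genes was 9.01, 9.22 and 9.02 for wild-type replicates 1 to 3 and 9.24, 9.10 and 9.28 for the mutant-labelled ones, so the genotypes overlapped.

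Other ciliary gene lists also had 0 genes called by limma, against 0.923% of all genes. Of 57 measured genes of other motile axoneme proteins, 4 were higher (7.02%) and 2 lower (3.51%) at an unadjusted limma p under 0.05. Over all genes these shares were 7.51% and 7.04%. The median log2 difference of that list was 0.08. Cfap54, a central pair protein, had 1072, 1137 and 1078 in wild type against 2429, 1861 and 1929, without overlap. Its log2 difference was 0.90 ± 0.17 (SE, n = 3 each) and its limma adjusted p 0.0733, the lowest of that list. Ccdc114, an outer arm docking protein, had 0.88 (limma adjusted p = 0.161), and Cfap126 had 0.71 (limma adjusted p = 0.185).

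Genes of intraflagellar transport and the BBSome carry cargo in cilia. Of 40 measured, 3 were higher (7.5%) and 1 lower (2.5%) at an unadjusted limma p under 0.05, against 7.51% and 7.04% of all genes. Their median log2 difference was 0.15. The BBSome genes Ttc8, Bbs9 and Bbs5 had the smallest p, with log2 differences of 0.48, -0.42 and 0.53 (limma adjusted p = 0.281, 0.317 and 0.318). Of 13 measured regulators of multiciliated cells, 1 was higher (7.69%) and 0 lower at that level, with a median of 0.03. Deup1, which builds the deuterosomes that multiply centrioles, had 40.4, 33.8 and 61.1 against 69.6, 80.0 and 70.3, a log2 difference of 0.57 (limma adjusted p = 0.276). Plk4, a kinase of centriole duplication, had -0.43 (limma adjusted p = 0.377), and the E2F factor gene E2f4 had 0.62 (limma adjusted p = 0.501).

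**Figure D4:**
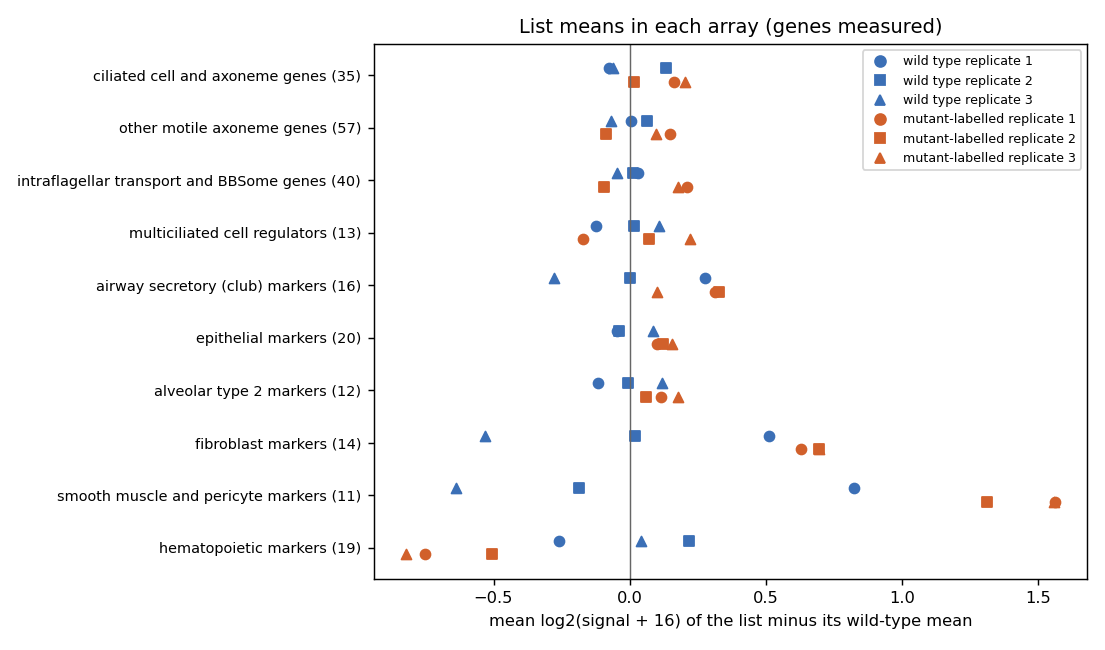
Mean log2(signal + 16) of each gene list minus its mean over the 3 wild-type arrays (horizontal axis), 1 point per array. The genotypes overlap for the ciliated cell genes, and for the smooth muscle and pericyte markers the mutant-labelled points lie right of all wild-type points.

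Markers of some other cells differed between genotypes in the same arrays, and their part in the values above was not tested. Summed signal of the 35 ciliated genes was 28293 to 32912 for wild type and, without overlap, 34008 to 36184 for the mutant-labelled arrays. For 20 general epithelial markers it was 41604 to 46558 and 43320 to 44423, overlapping, with 0 called. In mean log2 signal these markers did not overlap, at 10.14 to 10.27 and 10.29 to 10.35, while the ciliated genes did. Summed signal of 16 club cell markers was 63549 to 74807 and 73491 to 82552, also overlapping, with 1 called higher (Pigr, which carries immunoglobulin across epithelia). For 7 airway basal markers it was 681 to 1291 and 830 to 1478, overlapping, with 0 called. Mean log2 signal overlapped for alveolar type 2, alveolar type 1, neuroendocrine and mesothelial markers, but not for fibroblast or smooth muscle and pericyte markers. Summed signal, in which bright genes weigh most, did not overlap for these 6 lists. For 12 alveolar type 2 markers it was 124626 to 141343 and 146486 to 150745, and for 10 alveolar type 1 markers 23442 to 28742 and 29076 to 33728, with 0 called in either list and 3 of the type 1 markers higher at an unadjusted limma p under 0.05. For 7 neuroendocrine markers it was 715 to 904 and 546 to 696, with 1 called lower (Resp18), and for 7 mesothelial markers 9139 to 9822 and 7878 to 8536, with 0 called. For 14 fibroblast markers it was 27520 to 49000 and 60331 to 64370, with 1 called higher (Col1a1), and for 11 smooth muscle and pericyte markers 4024 to 10308 and 13040 to 15652, with 0 called and all 11 higher at an unadjusted limma p under 0.05.

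Markers of the cells the sort was meant to remove were also present. Ptprc, which encodes CD45, had a wild-type mean of 7716 ± 966 and a mutant-labelled mean of 5767 ± 852, and Pecam1, which encodes CD31, 2247 ± 506 and 2939 ± 247 (SD, n = 3 each). The 19 hematopoietic markers summed to 84436 to 107585 and 88773 to 120797, with 4 called lower (Ms4a1, Cd79a, Cd79b and Ncr1). Their mean log2 signal did not overlap, at 11.14 to 11.61 in wild type and 10.57 to 10.89 in the mutant-labelled arrays. At an unadjusted limma p under 0.05, 8 were lower (42.1%) and 3 higher (15.8%), against 7.04% and 7.51% of all genes. The 10 endothelial markers summed to 18418 to 31262 and 22604 to 26290, with 0 called.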

How the data were processed

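RNA was amplified to cDNA and hybridised to Mouse Genome 430 2.0 arrays, per the labels' protocols. The authors deposited linear intensity values per probe set, and Expression Console 1.1 is the software named, per the submitters' processing notes; how probes were summarised is not stated there. Here 16 was added to each intensity before log2, which understates folds of dim genes. Of 45101 probe sets, 34945 with a single symbol gave 18193 genes, each by its probe set of highest mean log2 value. Genotypes were compared with limma 3.58.1 (lmFit, eBayes; R 4.3.3) over all genes, with Benjamini-Hochberg adjustment at 0.05. All measured members are named; values per array are given for transcription factors, genes without overlap, the smallest p of each role and cases described. In other ciliary lists the 3 smallest p are named. The members and lists were chosen with earlier results of these data known. In data simulated for this comparison over 18193 genes, 0.294% of genes changed by a log2 of 0.5 were recovered. The share was 17.8% for a log2 of 1 and 65.9% for 2, so a gene not called may still have changed. Alternatives varied the scaling, offset, filter, probe-set rule, prior, array weights, replicate block, threshold and arrays. The number of arrays limits the precision.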

Additional observations from a re-analysis of the deposited data

How the results depend on the processing

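Under every alternative run, limma called 0 of the ciliated genes higher and 0 lower, and at an unadjusted p under 0.05 between 2 and 6 were higher and 0 lower. Their median log2 difference ranged from 0.015 to 0.21 with 1 array left out. Over all genes, 75 were called higher and 93 lower. These counts were 12 and 21 for an offset of 1, 120 and 145 for 64, 145 and 163 for genes with a mean signal of at least 100, 213 and 225 with a trended robust prior, and 229 and 226 at an adjusted p under 0.1. With 1 array left out they ranged from 1 to 35 and from 1 to 41, and leaving out any of the 6 moved both by over 1.5 times. With the replicate block limma called 0 and 0, with 1356 higher and 1255 lower at an unadjusted p under 0.05. Arrays sharing a replicate number deviated together weakly over genes (r = 0.0735, 0.0485 and 0.0319). Each array correlated best with its own number, and r for unlike numbers ran from -0.0568 to 0.00138. The labels name no pairing, and the main fit used none. Whether the numbers mark a pairing is not known. Of 559 refitted differences of single ciliated genes, 33 turned sign, in 16 genes, and 0 were called. With the mean of probe sets the log2 difference of Ccdc39 was -0.065 and that of Spag16 0.44, and with array weights that of Lrrc23 was -0.017. With 1 array left out, the log2 differences of the genes that turned sign ranged as follows: Rfx2 -0.34 to 0.090, Dnah5 -0.062 to 0.22, Dnah11 -0.24 to 0.0017, Dnaic1 -0.017 to 0.12, Armc4 -0.45 to 0.030, Ccdc39 -0.066 to 0.28, Ccdc40 -0.35 to 0.054, Rsph1 -0.035 to 0.23, Lrrc23 -0.14 to 0.12, Spag16 -0.28 to 0.20, Spag17 -0.063 to 0.10, Hydin -0.27 to 0.16, Kif9 -0.054 to 0.21, Tekt1 -0.073 to 0.16, Fam183b -0.23 to 0.38 and Pifo -0.084 to 0.32. The cause was not tested.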
